A study of Homo sapiens with 18 samples.

Results

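The response of SKOV3 cells to 20 mg/L daphnetin was compared with that of A2780 cells, gene by gene, as an interaction: the change from DMSO in SKOV3 minus the change from DMSO in A2780. The comparison used the 12 libraries of both lines at DMSO and 20 mg/L, of 18 in the series, and sorted genes into shared, line-specific and opposite responses. Daphnetin is a dihydroxycoumarin from Daphne plants, and A2780 and SKOV3 are established human ovarian cancer cell lines. The series was designed to look for transcripts and pathways that accompany the death and reduced movement of daphnetin-treated cells. The 4 groups were A2780 with DMSO, A2780 with 20 mg/L daphnetin, SKOV3 with DMSO and SKOV3 with 20 mg/L daphnetin, each of 3 libraries. All cells were unmodified, per the labels, and DMSO is the solvent control. The protocol lists DMEM for A2780 and RPMI for SKOV3, with different serum contents, so line and medium cannot be told apart. The time of treatment is not given in the sources used here. Nothing in the labels says whether the numbered replicates were grown apart, so a p-value here reflects how much these libraries vary, which may be technical variation alone.

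Several well-known programmes frame the comparison. NRF2 is a transcription factor that is held down by KEAP1 until reactive or oxidising compounds modify KEAP1, after which it turns on genes of glutathione, thioredoxin, quinone and heme metabolism. The p53 protein turns on cell cycle inhibitors and repair genes after stress. The integrated stress response acts through the transcription factor ATF4 on amino acid genes, MYC drives ribosome building and glucose use, and SREBP2 drives cholesterol synthesis.

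Total counts ran from 31513559 to 37220879 in the 6 A2780 libraries and from 35105152 to 43633963 in the 6 SKOV3 libraries. Small counts were mostly even (74.4% to 76.4% of those from 1 to 12), as when both mates of a read pair are counted, so the totals overstate the fragments. The share of counts on mitochondrially encoded genes was 11.1% to 16.5% in A2780 and 4.36% to 5.23% in SKOV3. ERBB2, a receptor gene known to be amplified in SKOV3, averaged 64.6 ± 0.825 CPM (counts relative to library size, TMM-scaled over all libraries; SD, n = 3) in A2780 and 2759 ± 69.0 CPM in SKOV3 with DMSO, the order that the line labels call for. Of 17 epithelial genes, 11 were under 1 CPM in every A2780 DMSO library against 1 in SKOV3, and their summed level was 30.8 to 31.5 CPM against 2250 to 2290 CPM. Of 14 immune cell markers, 11 in A2780 and 13 in SKOV3 were under 1 CPM in every DMSO library; the most abundant were CD4 in A2780 (8.21 CPM) and CD68 in SKOV3 (74.5 CPM). Fibroblast and endothelial markers summed to 745 to 805 CPM in A2780 with DMSO and 585 to 617 CPM at 20 mg/L, and to 790 to 836 CPM and 642 to 679 CPM in SKOV3, most of it collagen; their part in the results was not tested.

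Of 23742 genes tested, 5121 (21.6%) differed between the lines in their response, 2616 (11.0%) with the higher change in SKOV3 and 2505 (10.6%) with the higher change in A2780. The test throughout was edgeR's quasi-likelihood F test with Benjamini-Hochberg adjustment over all genes, and genes with an adjusted p below 0.05 are called. Fold changes are given as log2 ± SE. The difference between the lines was at least 2-fold in 791 called genes (3.33%). At 20 mg/L against DMSO, 8011 genes (33.7%) were called in A2780, 4073 higher (17.2%) and 3938 lower (16.6%), and 893 of these moved at least 2-fold (3.76%). In SKOV3, 1466 genes (6.17%) were called, 772 higher (3.25%) and 694 lower (2.92%), 137 of them at least 2-fold (0.577%). The reported fit shares its estimate of the spread between the lines. With each line fitted alone the counts were 7602 in A2780 and 2217 in SKOV3. The classes given below need the fit of both lines and were not recomputed from the separate fits. Libraries of DMSO and 20 mg/L did not overlap in 9707 genes in A2780 (40.9%) and in 6088 in SKOV3 (25.6%).

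The calls of both lines and of their difference sorted the genes into classes. A2780-specific genes, called in A2780 and for the difference but not in SKOV3, numbered 4143 (17.5%), 2076 higher (8.74%) and 2067 lower (8.71%). SKOV3-specific genes numbered 296 (1.25%), 157 higher (0.661%) and 139 lower (0.585%). A further 198 genes (0.834%) were called in opposite directions, 62 of them higher in A2780 and lower in SKOV3 (0.261%) and 136 the other way (0.573%). Shared responses of unequal size numbered 153 (0.644%), the larger one in A2780 for 134 (0.564%) and in SKOV3 for 19 (0.0800%). Another 409 genes (1.72%), 193 higher (0.813%) and 216 lower (0.910%), were called in the same direction in both lines with no call for the difference. For 326 of these the 95% interval of the difference lay within log2 -0.5 to 0.5; the median width of the interval was 0.445. The 3518 genes called in 1 line without a call for the difference (14.8%) are undecided, and most of them (3108) were called in A2780. The difference alone was called for 331 genes (1.39%).

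Among the 10903 genes with at least 5 CPM in both lines, log2 fold changes had an SD of 0.373 in A2780 and 0.170 in SKOV3. Of these, 5848 (53.6%) were called in A2780, 1016 (9.32%) in SKOV3 and 3999 (36.7%) for the difference. Counts called in the gene lists below are to be read beside these shares. Across these genes, which are not independent replicates, Pearson's r between the lines' responses was 0.206 and Spearman's rho 0.155. Of the 2817 genes that rose in A2780, 7.49% were also called higher in SKOV3 and 1.81% called lower. Of the 506 that rose in SKOV3, 41.7% were called higher in A2780 and 21.7% lower. Of the 510 that fell in SKOV3, 54.3% were called lower in A2780 and 10.0% higher.

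**Figure D1:**
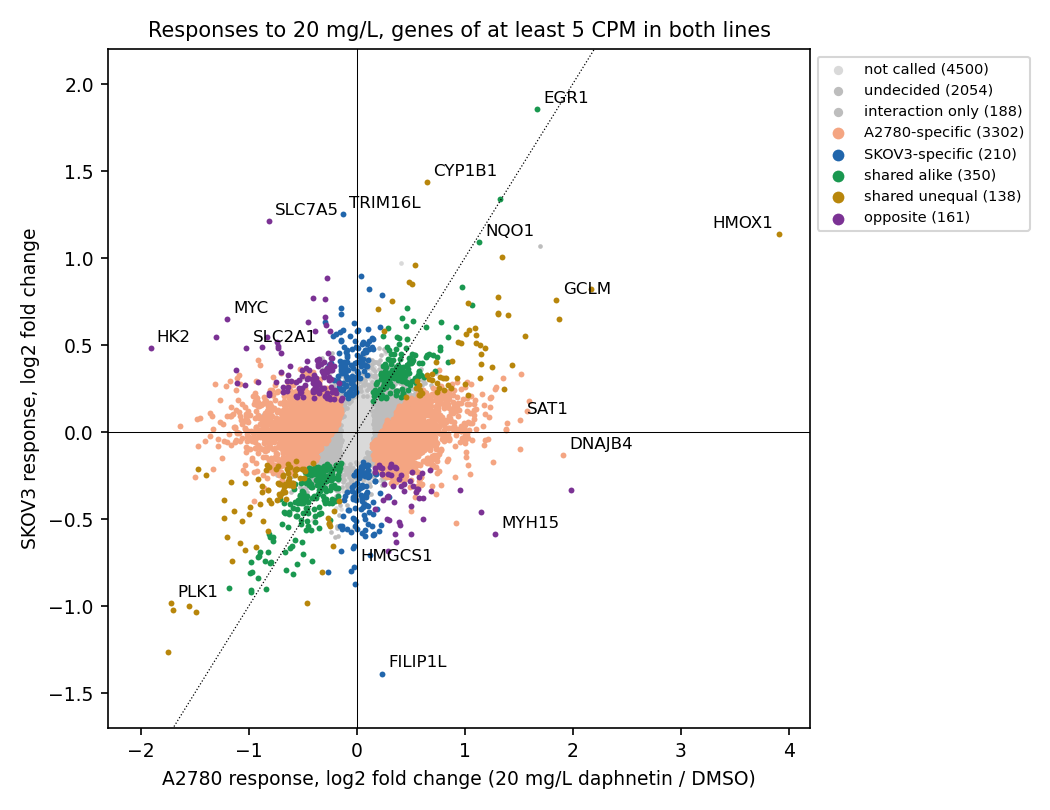
Each point is a gene of at least 5 CPM in both lines, with its log2 fold change at 20 mg/L against DMSO in A2780 (horizontal axis) and in SKOV3 (vertical axis), coloured by class with the number of genes in brackets; the 3 grey classes are genes not called, undecided or called for the difference alone. The axes differ in scale, the dotted line marks equal responses, and most coloured points spread along the horizontal axis (SD 0.373 in A2780 against 0.170 in SKOV3), with HMOX1 far to the right and SLC7A5, MYC and HK2 at the upper left.

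Of 36 NRF2 targets tested, 20 rose and 1 fell in A2780 (median log2 0.635 against 0.00355 over all genes), and 29 rose in SKOV3 (median 0.587 against 0.00536). For 26 of them the difference was called, 12 higher in SKOV3 and 14 higher in A2780 (median -0.0196 against -0.0110 over all genes). Among the 27 NRF2 targets of at least 5 CPM in both lines, medians were 0.847 in A2780 and 0.577 in SKOV3. The median difference among these was -0.288, against 0.0119 over all genes at that level. Of the members that rose in both lines, 15 had a called difference and 4, among them NQO1, did not. The 13 shared genes with the larger rise in A2780 include the glutathione and thioredoxin enzymes GCLM, GCLC, GSR, TXNRD1 and SRXN1. The 9 SKOV3-specific genes include PGD and TKT of the pentose phosphate pathway, the aldo-keto reductases AKR1C1, AKR1C2 and AKR1C3, TRIM16, TRIM16L and UGDH. All A2780 libraries were below 1 CPM for AKR1C1, AKR1C2 and AKR1C3, so a response there was not measurable at this depth. AKR1C1 and AKR1C2 are near-identical in sequence, as are TRIM16 and TRIM16L, so their reads may be shared. Promoters of a pair of the shared genes follow, as windows from 250 bases before to 50 after the gene start, from RefSeq (build GRCh38.p14), 5′ to 3′ on the gene's strand. Capitals mark the core of the antioxidant response element, TGACNNNGC, or its reverse complement where the match is on the other strand.
GCLM (chr1:93909381-93909680, minus strand): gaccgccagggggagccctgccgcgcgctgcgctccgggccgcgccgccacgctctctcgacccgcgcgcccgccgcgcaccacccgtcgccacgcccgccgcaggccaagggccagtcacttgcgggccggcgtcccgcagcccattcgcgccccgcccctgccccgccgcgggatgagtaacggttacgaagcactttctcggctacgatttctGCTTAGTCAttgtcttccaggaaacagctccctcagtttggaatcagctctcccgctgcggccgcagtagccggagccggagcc
TXNRD1 (chr12:104215529-104215828, plus strand): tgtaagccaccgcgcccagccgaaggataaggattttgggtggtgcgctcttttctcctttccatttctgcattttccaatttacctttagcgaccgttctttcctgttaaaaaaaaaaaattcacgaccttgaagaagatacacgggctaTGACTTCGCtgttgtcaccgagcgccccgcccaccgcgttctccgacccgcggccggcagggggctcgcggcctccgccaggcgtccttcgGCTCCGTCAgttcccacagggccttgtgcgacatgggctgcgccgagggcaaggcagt
On either strand the core stood in 7 of 26 NRF2 target promoters with an entry (26.9%) and in 14.8% of the 12232 promoters of all tested genes. A match is a description of these letters, not a site of binding.

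NQO1, the quinone reductase named in the series' title (chromosome 16, 69706996 to 69726951), measured 87.4, 85.4 and 93.4 CPM with DMSO and 201, 193 and 189 CPM at 20 mg/L in A2780. In SKOV3 it measured 124, 126 and 125 CPM with DMSO and 258, 267 and 272 CPM at 20 mg/L. The groups did not overlap in either line, and SKOV3 started and ended higher. NQO1 rose by log2 1.13 ± 0.06 in A2780 and 1.09 ± 0.06 in SKOV3, a difference of -0.04 with a 95% interval of -0.22 to 0.14.

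HMOX1, the inducible heme oxygenase (chromosome 22, 35380361 to 35394214), stood at 1.98, 1.70 and 1.28 CPM with DMSO and at 24.4, 24.6 and 26.5 CPM at 20 mg/L in A2780. SKOV3 had 3.39, 3.72 and 2.19 CPM with DMSO and 6.43, 6.19 and 7.83 CPM at 20 mg/L. Both rises were free of overlap, and A2780 started below and ended above SKOV3. The rise was log2 3.92 ± 0.17 in A2780 and 1.14 ± 0.16 in SKOV3, a difference of -2.78 ± 0.24 (edgeR adjusted p = 9.82e-10). OSGIN1, an oxidative stress gene, had a like pair of values, 3.87 ± 0.21 and 1.10 ± 0.20.

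TXNRD1, thioredoxin reductase (chromosome 12, 104215779 to 104350305), went from 112, 106 and 114 CPM to 289, 320 and 268 CPM in A2780 and from 237, 225 and 235 CPM to 347, 353 and 411 CPM in SKOV3. It rose in both lines, by log2 1.40 ± 0.07 and 0.67 ± 0.07. GCLM, the modifier subunit of glutamate-cysteine ligase (chromosome 1, 93885205 to 93909456), went from 8.14, 6.91 and 7.34 CPM to 25.2, 29.9 and 25.7 CPM in A2780 and from 6.48, 7.17 and 7.92 CPM to 12.4, 11.3 and 12.8 CPM in SKOV3. The DMSO levels overlapped between the lines, and the treated levels did not. The difference was -0.73 ± 0.10 for TXNRD1 and -1.09 ± 0.13 for GCLM (edgeR adjusted p = 1.69e-07 and 4.24e-08).

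TRIM16L, whose close copy TRIM16 is a known ubiquitin ligase (chromosome 17, 18697998 to 18736118), showed the other pattern. A2780 libraries had 8.11, 8.84 and 8.07 CPM with DMSO and 7.58, 7.07 and 8.31 CPM at 20 mg/L, which overlap. SKOV3 libraries had 3.63, 4.4 and 4.45 CPM with DMSO and 9.97, 9.14 and 10.6 CPM at 20 mg/L, with no overlap. The log2 change was -0.13 ± 0.11 in A2780 (edgeR adjusted p = 0.414) and 1.25 ± 0.11 in SKOV3, and the difference of 1.38 ± 0.16 was called (edgeR adjusted p = 9.92e-09).

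**Figure D2:**
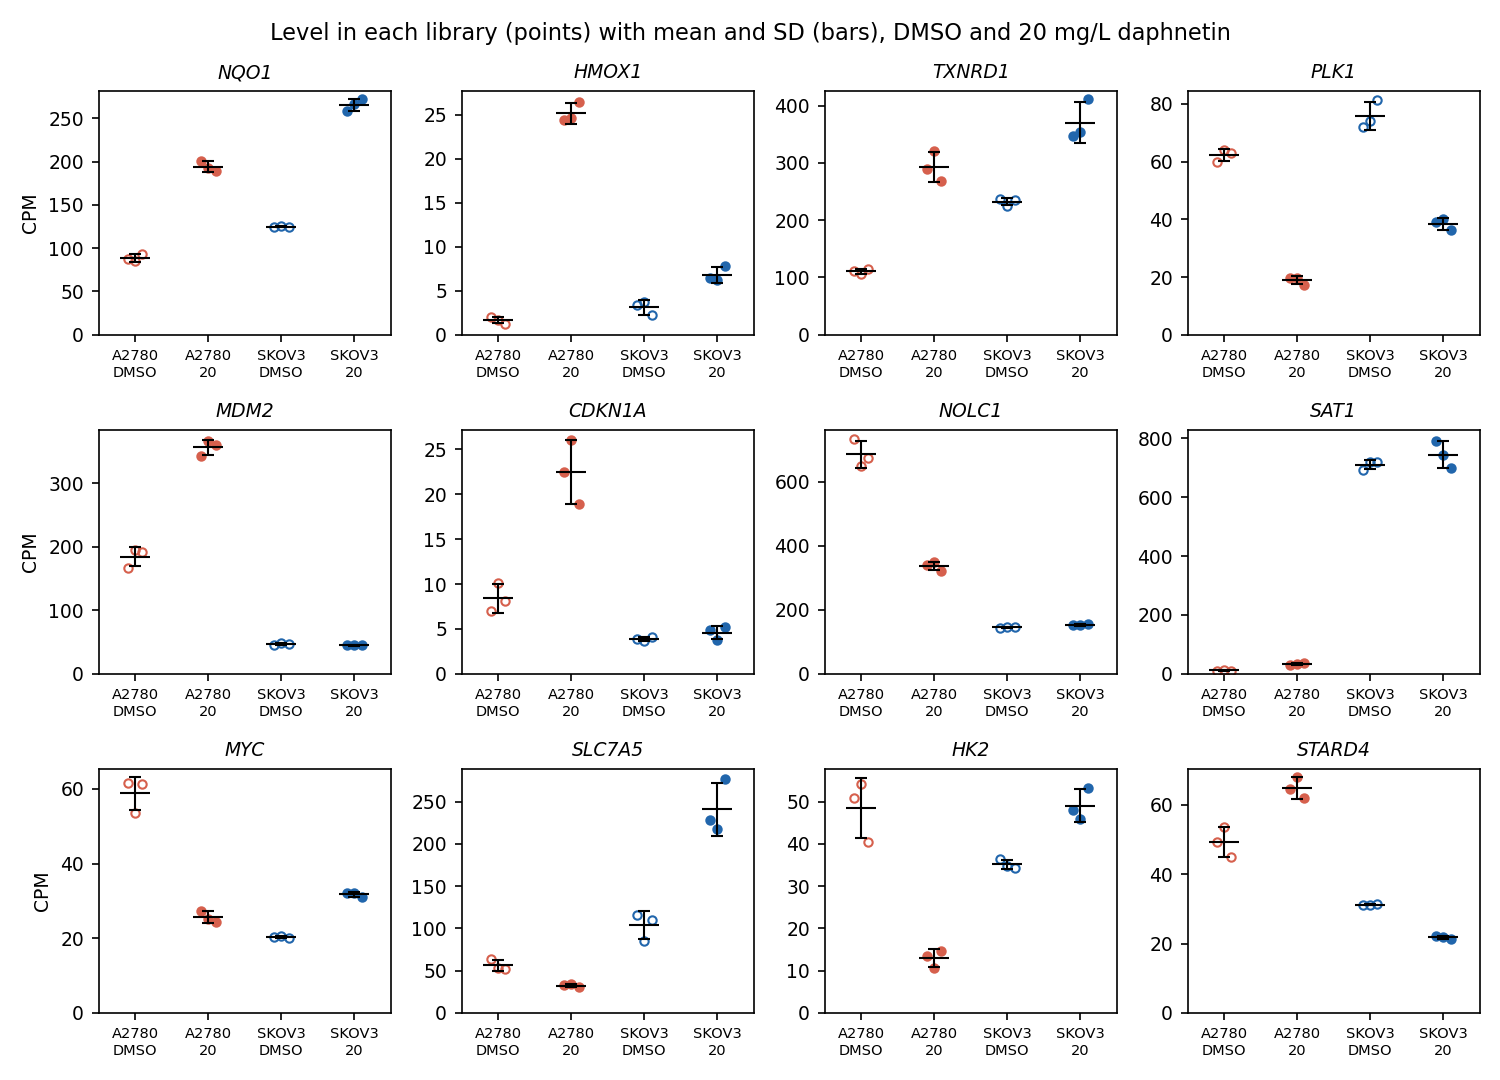
Level in CPM of 12 genes in each library with DMSO (open points) and 20 mg/L daphnetin (filled points) in A2780 (red) and SKOV3 (blue), with the mean and SD of 3 libraries as bars; each panel has its own axis, starting at 0. NQO1 rises by similar steps in both lines, MDM2, CDKN1A and NOLC1 move in A2780, and MYC, SLC7A5 and HK2 fall in A2780 and rise in SKOV3.

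The p53 targets were called almost entirely in A2780. Of 30 tested, 26 rose there (median log2 0.554), and 2, GDF15 and GADD45A, rose in SKOV3 (median 0.00292). A difference between the lines was called for 19, of which 18 had the higher change in A2780 and 1, the stress cytokine gene GDF15, in SKOV3.

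CDKN1A, the kinase inhibitor p21 (chromosome 6, 36676460 to 36687339), measured 7.0, 10.1 and 8.1 CPM with DMSO and 22.5, 26.1 and 18.9 CPM at 20 mg/L in A2780, and 3.84, 3.61 and 4.13 CPM and 4.86, 3.75 and 5.18 CPM in SKOV3. The SKOV3 groups overlapped and the A2780 groups did not. It rose by log2 1.42 ± 0.12 in A2780, with 0.24 ± 0.14 in SKOV3 and a difference of -1.17 ± 0.19 (edgeR adjusted p = 7.33e-06). MDM2, the ubiquitin ligase that degrades p53 (chromosome 12, 68808176 to 68850686), measured 167, 195 and 192 CPM with DMSO and 344, 367 and 360 CPM at 20 mg/L in A2780. SKOV3 held it at 46.1, 48.8 and 46.3 CPM with DMSO and 46.1, 44.7 and 44.7 CPM at 20 mg/L. It rose by log2 0.95 ± 0.06 in A2780, with -0.06 ± 0.06 in SKOV3. TP53INP1, a p53 cofactor in autophagy and cell death, had log2 1.26 ± 0.08 and -0.17 ± 0.10, and BTG2, an antiproliferative gene, 1.03 ± 0.08 and -0.19 ± 0.10.

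Mitotic genes moved together in both lines. Of 30 tested, 25 fell and 1 rose in A2780 (median log2 -0.619) and 26 fell in SKOV3 (median -0.508). For 14 the difference was called, with 11 falling further in A2780 or moving in A2780 alone, and 3, NUSAP1, ANLN and ECT2, lower in SKOV3 (median of the list 0.167). Of the 30, 13 were shared with no call for the difference. A pair of promoters of the list is shown because many members carry the same short element, the cell cycle genes homology region TTTGAA, in capitals.
PLK1 (chr16:23678639-23678938, plus strand): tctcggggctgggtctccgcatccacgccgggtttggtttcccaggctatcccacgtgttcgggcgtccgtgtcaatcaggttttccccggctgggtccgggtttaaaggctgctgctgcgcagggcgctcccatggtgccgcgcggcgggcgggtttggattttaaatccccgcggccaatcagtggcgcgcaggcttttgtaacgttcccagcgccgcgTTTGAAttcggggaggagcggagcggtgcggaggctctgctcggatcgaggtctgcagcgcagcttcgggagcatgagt
CENPA (chr2:26785806-26786105, plus strand): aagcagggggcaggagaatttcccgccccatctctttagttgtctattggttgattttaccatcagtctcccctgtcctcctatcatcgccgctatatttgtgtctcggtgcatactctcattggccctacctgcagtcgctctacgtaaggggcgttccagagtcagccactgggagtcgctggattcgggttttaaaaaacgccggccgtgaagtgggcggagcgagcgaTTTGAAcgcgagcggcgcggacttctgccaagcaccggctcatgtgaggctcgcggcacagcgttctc
Searched on both strands, TTTGAA stood in 16 of 25 mitotic promoters with an entry (64.0%) against 10.3% of the 12232 of all tested genes. In the wider class of genes lower in both lines without a called difference it stood in 51 of 159 (32.1%), and in 6 of 94 promoters of genes lower in A2780 and higher in SKOV3 (6.38%).

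PLK1, a kinase of mitotic entry and spindle assembly (chromosome 16, 23677656 to 23690367), measured 59.8, 63.9 and 62.9 CPM with DMSO and 19.8, 19.6 and 17.3 CPM at 20 mg/L in A2780. In SKOV3 the libraries had 71.8, 74.1 and 81.4 CPM and 39.0, 40.0 and 36.2 CPM. It fell in both lines without overlap, with log2 changes of -1.72 ± 0.07 and -0.98 ± 0.07, and the difference of 0.74 ± 0.10 was called (edgeR adjusted p = 1.96e-07). CCNB1, the mitotic cyclin B1 (chromosome 5, 69167010 to 69178245), fell from 150, 155 and 148 CPM to 55.7, 52.4 and 46.2 CPM in A2780 and from 189, 195 and 195 CPM to 97.4, 98.8 and 93.1 CPM in SKOV3. Its changes were -1.55 ± 0.06 and -1.0 ± 0.06. CENPA, the histone variant of centromeres, had -1.21 ± 0.11 and -0.61 ± 0.10.

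NUSAP1, a spindle microtubule protein (chromosome 15, 41332694 to 41381050), was the 1 mitotic gene that moved in opposite directions. It measured 80.0, 80.1 and 88.2 CPM with DMSO and 135, 120 and 123 CPM at 20 mg/L in A2780, and 342, 337 and 365 CPM and 280, 271 and 251 CPM in SKOV3. It rose by log2 0.61 ± 0.06 in A2780 and fell by log2 0.38 ± 0.06 in SKOV3. Among genes of at least 5 CPM in both lines, without overlap of DMSO and 20 mg/L libraries and lower in both with no called difference, those with the largest smaller change were HMMR, a spindle-associated hyaluronan receptor, its antisense transcript HMMR-AS1, PTTG1, the securin that holds sister chromatids together, and DLGAP5, a spindle protein. HMMR had log2 -0.98 ± 0.07 in A2780 and -0.92 ± 0.07 in SKOV3, with an interval of the difference of -0.14 to 0.27. DLGAP5 had -0.84 ± 0.07 and -0.90 ± 0.07, with an interval of -0.26 to 0.13. The difference for PTTG1 was not called (edgeR adjusted p = 0.0959) but passed without A2780 DMSO replicate 3 (0.0436) and without A2780 20 mg/L replicate 2 (0.044). HMMR and HMMR-AS1 overlap on opposite strands (11.8% of the exonic bases of HMMR-AS1), so their reads may be shared.

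DNA replication genes leaned higher, more so in SKOV3. Of 37 tested, 24 rose in SKOV3 (median log2 0.333), and 12 rose and 5 fell in A2780 (median 0.140). The difference was called for 18, with 16 higher in SKOV3. The 9 SKOV3-specific genes include MCM2, MCM4, MCM5 and MCM7, subunits of the replicative helicase, with CDC6 and CDC45, which load and activate it. MCM6, another helicase subunit (chromosome 2, 135839626 to 135876426), measured 76.7, 59.3 and 64.0 CPM with DMSO and 46.7, 50.8 and 43.0 CPM at 20 mg/L in A2780, against 50.9, 54.0 and 52.4 CPM and 64.1, 68.1 and 64.7 CPM in SKOV3. It fell by log2 0.51 ± 0.08 in A2780 and rose by 0.32 ± 0.08 in SKOV3. CCNE1, the cyclin of the start of S phase, had -0.15 ± 0.09 in A2780 and rose by 0.52 ± 0.09 in SKOV3. The S phase regulator E2F2 was SKOV3-specific (0.04 ± 0.13 and 0.90 ± 0.14), as was RMI2, a subunit of a DNA repair complex (0.11 ± 0.13 and 0.82 ± 0.13). E2F7, a repressor of the same family, rose in both lines, by 1.07 ± 0.09 and 0.73 ± 0.09, with an adjusted p of 0.0518 for the difference that passed under 12 of the alternatives tried.

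Ribosome biogenesis genes fell in A2780. Of 30 tested, 27 fell and 1, UTP15, rose in A2780 (median log2 -0.520), whereas 1 was called in SKOV3, higher (median 0.00875). The difference was called for 28, of which 27 had the higher change in SKOV3 (median 0.580). NOLC1, a nucleolar chaperone (chromosome 10, 102152176 to 102163871), measured 734, 650 and 673 CPM with DMSO and 341, 348 and 322 CPM at 20 mg/L in A2780. In SKOV3 it measured 143, 147 and 146 CPM with DMSO and 153, 151 and 156 CPM at 20 mg/L. The log2 changes were -1.02 ± 0.06 and 0.08 ± 0.06, and the difference was 1.10 ± 0.08 (edgeR adjusted p = 5.32e-13). DKC1, the pseudouridine synthase dyskerin, had -0.91 ± 0.06 and 0.00 ± 0.06, and NOP16 had -0.87 ± 0.07 and 0.06 ± 0.08. MYBBP1A, a nucleolar regulator of ribosomal RNA synthesis, was the 1 member called in both lines, at -0.81 ± 0.06 and 0.21 ± 0.06. Its promoter is printed because it holds CACGTG, the E-box that MYC and related factors bind, in capitals.
MYBBP1A (chr17:4555335-4555634, minus strand): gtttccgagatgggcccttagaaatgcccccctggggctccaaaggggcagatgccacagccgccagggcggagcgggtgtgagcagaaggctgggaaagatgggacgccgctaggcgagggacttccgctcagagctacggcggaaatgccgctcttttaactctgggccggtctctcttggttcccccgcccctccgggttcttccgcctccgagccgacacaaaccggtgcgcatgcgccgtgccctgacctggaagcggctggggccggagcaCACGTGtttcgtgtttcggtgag
This E-box stood in 10 of 24 ribosome biogenesis promoters with an entry (41.7%) and in 9.70% of the 12232 of all tested genes. It also stood in 6 of 17 promoters of lysosome and autophagy genes (35.3%), and the remaining lists had lower shares.

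MYC, a transcription factor of growth and ribosome building, moved in opposite directions. A2780 libraries had 61.5, 53.6 and 61.3 CPM with DMSO and 27.3, 25.2 and 24.2 CPM at 20 mg/L. SKOV3 libraries had 20.2, 20.5 and 20.0 CPM with DMSO and 32.1, 32.0 and 31.0 CPM at 20 mg/L. The order of the lines turned: every A2780 library was above every SKOV3 library with DMSO and below them at 20 mg/L. MYC fell by log2 1.2 ± 0.07 in A2780 and rose by 0.65 ± 0.07 in SKOV3, a difference of 1.85 ± 0.10 (edgeR adjusted p = 3.48e-17).

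Genes of the integrated stress response split. Of 35 tested, 25 rose in SKOV3 (median log2 0.377), while 11 rose and 12 fell in A2780 (median 0.0561). In 9 the lines moved in opposite directions: the serine and one-carbon enzymes PHGDH, PSAT1 and SHMT2, the amino acid importers SLC7A5 and SLC1A5, CBS, PCK2, STC2 and TRIB3. Another 7, ATF4 and ATF3 among them, rose in both lines with no call for the difference. SLC7A5 and SLC3A2 encode the light and heavy chain of the same amino acid transporter, and they fell on different sides of this split. SLC3A2 is shown with its promoter, where capitals mark a match on the other strand to the C/EBP-ATF response element TGATGNAA.
SLC3A2 (chr11:62881449-62881748, plus strand): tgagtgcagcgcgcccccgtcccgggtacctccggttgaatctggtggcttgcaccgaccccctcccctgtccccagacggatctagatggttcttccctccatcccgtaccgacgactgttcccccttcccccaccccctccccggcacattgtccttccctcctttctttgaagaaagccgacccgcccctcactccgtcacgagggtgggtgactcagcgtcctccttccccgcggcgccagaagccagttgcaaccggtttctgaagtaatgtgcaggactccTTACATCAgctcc
This element stood in 6 of 29 promoters of the list with an entry (20.7%) and in 1.87% of the 12232 of all tested genes.

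SLC7A5 (chromosome 16, 87830023 to 87869488) measured 64.0, 52.8 and 52.0 CPM with DMSO and 32.3, 33.6 and 30 CPM at 20 mg/L in A2780. SKOV3 had 116, 85.4 and 110 CPM with DMSO and 228, 218 and 277 CPM at 20 mg/L. It fell by log2 0.82 ± 0.11 in A2780 and rose by 1.21 ± 0.11 in SKOV3, with no overlap in either line (difference 2.03 ± 0.15, edgeR adjusted p = 1.25e-08). SLC3A2 (chromosome 11, 62856102 to 62888875) rose from 112, 93.4 and 107 CPM to 217, 206 and 193 CPM in A2780 and from 293, 243 and 268 CPM to 484, 444 and 507 CPM in SKOV3. Its log2 changes of 0.98 ± 0.07 and 0.83 ± 0.07 differed by -0.15 (95% interval -0.35 to 0.05). TRIB3, a pseudokinase induced by ATF4, measured 3.13, 3.20 and 3.39 CPM with DMSO and 2.15, 2.25 and 1.71 CPM at 20 mg/L in A2780, and 5.14, 4.46 and 4.98 CPM and 11.4, 10.2 and 14 CPM in SKOV3. It fell by 0.66 ± 0.16 and rose by 1.28 ± 0.12. CBS, which makes cystathionine from homocysteine, had -0.91 ± 0.07 and 0.29 ± 0.08, and STC2, a secreted glycoprotein, -0.39 ± 0.08 and 0.58 ± 0.12.

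Glycolysis genes were lower in A2780 and mixed in SKOV3. Of 22 tested, 15 fell and 1 rose in A2780 (median log2 -0.478), and 8 fell and 3 rose in SKOV3 (median -0.0646). The 3 that rose in SKOV3, SLC2A1, HK2 and PFKP, are the glucose importer and early kinases of the pathway, and all of them fell in A2780. HK2, hexokinase 2 (chromosome 2, 74833981 to 74893359), measured 50.8, 54.1 and 40.4 CPM with DMSO and 13.5, 10.5 and 14.7 CPM at 20 mg/L in A2780. SKOV3 had 36.4, 34.7 and 34.3 CPM with DMSO and 48.0, 45.9 and 53.3 CPM at 20 mg/L. HK2 fell by log2 1.91 ± 0.10 in A2780 and rose by 0.48 ± 0.09 in SKOV3, a difference of 2.39 ± 0.14 (edgeR adjusted p = 2.98e-14). SLC2A1 had -1.02 ± 0.10 and 0.48 ± 0.09. PDK1, which shuts off pyruvate dehydrogenase, fell by 1.08 ± 0.13 in A2780, with 0.27 ± 0.11 in SKOV3. The lower steps PGK1, PGAM1, ENO1 and LDHA fell in both lines and further in A2780.

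Cholesterol synthesis genes fell in SKOV3. Of 24 tested, 17 fell and 1, EBP, rose there (median log2 -0.383), while 8 rose and 2 fell in A2780 (median 0.0340). The difference was called for 16, with 15 lower in SKOV3 (median -0.479). HMGCS1, the synthase that feeds HMG-CoA reductase (chromosome 5, 43289395 to 43313512), measured 158, 139 and 139 CPM with DMSO and 138, 158 and 131 CPM at 20 mg/L in A2780. SKOV3 libraries fell from 231, 260 and 255 CPM to 147, 152 and 136 CPM. The changes were -0.03 ± 0.07 and -0.78 ± 0.07, and the difference was -0.75 ± 0.09 (edgeR adjusted p = 8.83e-08). In 5 members the lines moved in opposite directions: MVK, IDI1, HSD17B7, MSMO1 and STARD4. STARD4, a cholesterol carrier, measured 49.3, 53.6 and 44.9 CPM with DMSO and 64.6, 68.2 and 61.9 CPM at 20 mg/L in A2780, and 31.2, 31.0 and 31.5 CPM and 22.2, 21.8 and 21.4 CPM in SKOV3. It rose by 0.40 ± 0.07 and fell by 0.52 ± 0.07. IDI1, an isomerase of isoprenoid units, had 0.36 ± 0.08 and -0.59 ± 0.08. SCD, the fatty acid desaturase, had 0.15 ± 0.10 in A2780 and fell by 0.59 ± 0.10 in SKOV3.

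**Figure D3:**
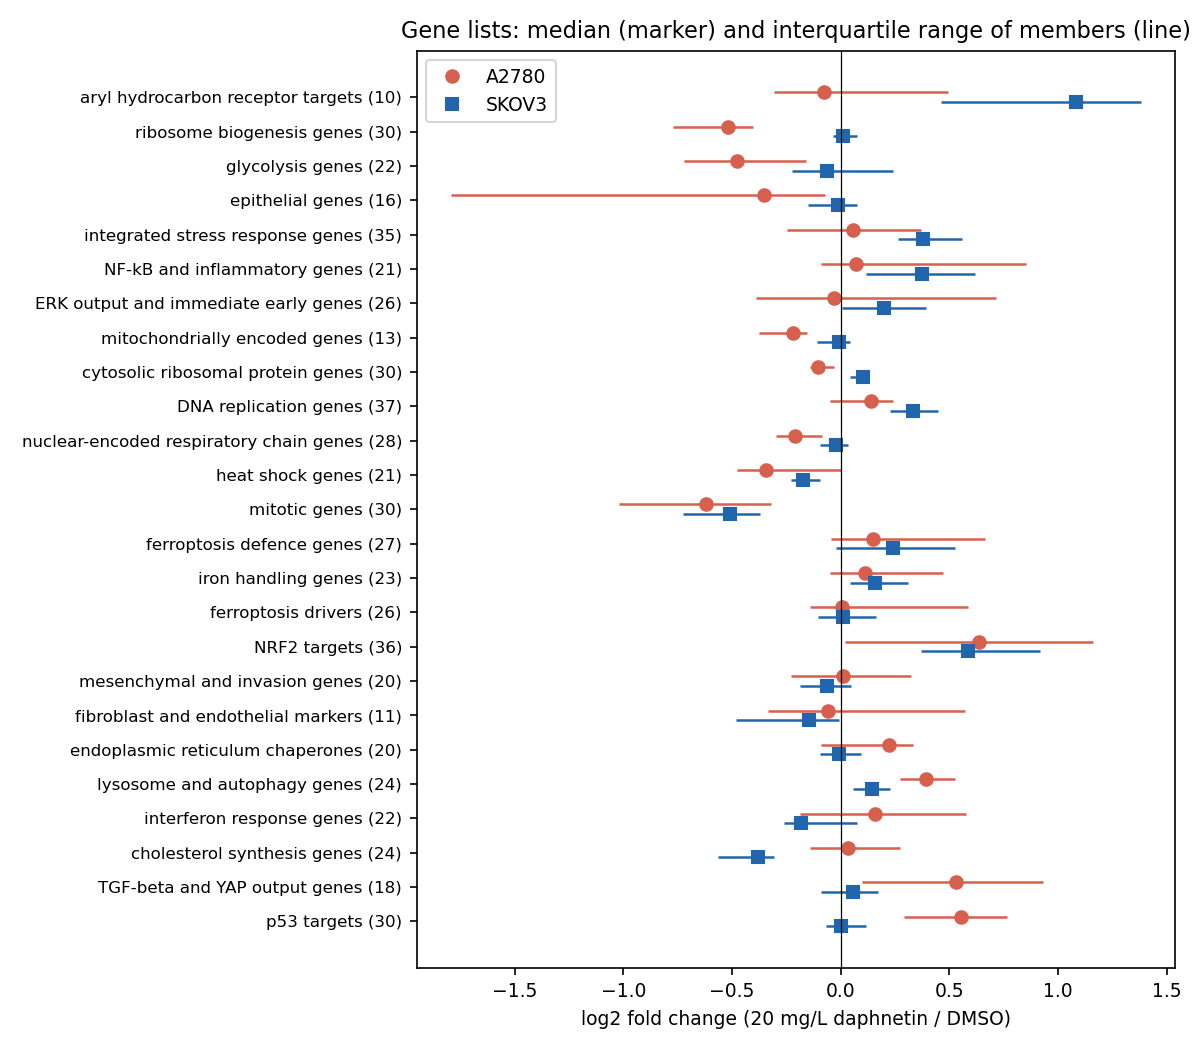
Median log2 fold change (marker) and interquartile range of members (line) at 20 mg/L against DMSO for each gene list with at least 10 tested members, in A2780 (red circles) and SKOV3 (blue squares), ordered by the gap between the medians; tested members are in brackets. Ribosome biogenesis and glycolysis genes lie lower in A2780, p53 targets and TGF-beta and YAP output higher there, and cholesterol synthesis genes lower in SKOV3. The medians of NRF2 targets and of mitotic genes lie near each other. Those of the 27 NRF2 targets of at least 5 CPM in both lines are 0.847 in A2780 and 0.577 in SKOV3. Epithelial, aryl hydrocarbon receptor, NRF2, NF-kB, interferon and mesenchymal lists, among others, hold members near 0 CPM in A2780.

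Chaperones differed by compartment. Of 20 endoplasmic reticulum chaperones, 10 rose and 2 fell in A2780 (median log2 0.223) and 0 were called in SKOV3 by edgeR (median -0.00848), where 4 had an unadjusted p under 0.05 and DESeq2 also called 0. The difference was called for 6, each with the higher change in A2780. CALR, calreticulin, had 0.33 ± 0.07 in A2780 and -0.12 ± 0.07 in SKOV3, and DNAJC3, an inhibitor of the kinase PERK, 0.53 ± 0.07 and -0.05 ± 0.07. Of 21 heat shock genes, 13 fell and 1 rose in A2780 (median -0.342), and 7 fell and 1 rose in SKOV3 (median -0.174). FKBP4, a co-chaperone of HSP90, fell by 0.99 ± 0.07 in A2780 (-0.10 ± 0.07 in SKOV3), and HSPE1, the mitochondrial co-chaperonin, fell by 0.79 ± 0.07 (-0.22 ± 0.07). The 1 that rose in A2780 was DNAJB4, a cytosolic co-chaperone of HSP70 (chromosome 1, 77979175 to 78017964). It measured 12.3, 14.8 and 13.4 CPM with DMSO and 47.7, 53.6 and 50.9 CPM at 20 mg/L in A2780, and 17.4, 19.1 and 18.7 CPM and 15.3, 18.3 and 16.7 CPM in SKOV3. The groups stood apart in A2780 and overlapped in SKOV3, with log2 1.91 ± 0.08 and -0.13 ± 0.08 (difference -2.04 ± 0.12, edgeR adjusted p = 1.49e-16).

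Of 24 genes of lysosomes and autophagy, 18 rose in A2780 (median log2 0.392) and 5 in SKOV3 (median 0.143), and the difference was called for 8, all with the higher change in A2780. NEU1, a lysosomal sialidase, rose by 1.09 ± 0.08 in A2780 (0.08 ± 0.10 in SKOV3), and GABARAPL1, an autophagosome protein, by 1.29 ± 0.09 (0.26 ± 0.09). Of 18 genes of TGF-beta and YAP output, 9 rose and 1 fell in A2780 (median 0.529) and 1 rose in SKOV3 (median 0.0549). SKIL, a repressor of SMAD signalling, rose by 1.05 ± 0.07 in A2780 (0.11 ± 0.07 in SKOV3), and AMOTL2, an angiomotin of the YAP pathway, by 1.01 ± 0.08 (-0.05 ± 0.07).

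Genes of ERK output and the immediate early response were mixed: 10 rose and 8 fell in A2780 and 11 rose and 1 fell in SKOV3, of 26 tested. The feedback inhibitor DUSP6 fell by log2 0.84 ± 0.09 in A2780 (0.17 ± 0.09 in SKOV3), and 40.5% of its exonic bases lie opposite another gene. JUN, a subunit of AP-1, rose by 1.36 ± 0.14 in A2780 and 0.25 ± 0.07 in SKOV3, on levels far lower in A2780. It went from 2.46, 1.98 and 1.78 CPM to 6.81, 5.26 and 3.9 CPM in A2780. SKOV3 had 126, 137 and 128 CPM with DMSO and 152, 159 and 152 CPM at 20 mg/L. EGR1, an early response transcription factor (chromosome 5, 138465490 to 138469315), measured 11.1, 8.98 and 8.56 CPM with DMSO and 39.3, 40.4 and 11.3 CPM at 20 mg/L in A2780. Replicate 3 at 20 mg/L thus lay beside the DMSO libraries. SKOV3 had 12.6, 9.88 and 10.6 CPM with DMSO and 36.4, 48.3 and 35.3 CPM at 20 mg/L. The changes were 1.67 ± 0.37 and 1.86 ± 0.36, and the interval of the difference ran from -0.94 to 1.31; without that library the difference was -0.21, against 0.19 with it. IER3, an early response gene, was SKOV3-specific (0.23 ± 0.12 and 0.79 ± 0.07), and 26.5% of its exonic bases lie opposite another gene.

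Of 21 NF-kB and inflammatory genes, 8 rose in SKOV3, and 5 rose and 3 fell in A2780. Only 6 of these genes reached 5 CPM in both lines, with medians of log2 0.136 in A2780 and 0.266 in SKOV3. CXCL1, CXCL8 and IL6 were near 0 CPM in A2780, and TNFAIP2, which fell there, was below 1 CPM. SOD2, the mitochondrial superoxide dismutase, fell in A2780 and rose in SKOV3 (log2 -0.28 ± 0.07 and 0.62 ± 0.06), and LIF, a cytokine gene, rose in SKOV3 (0.58 ± 0.08, with 0.01 ± 0.10 in A2780). Of 10 targets of the aryl hydrocarbon receptor, 7 rose in SKOV3 (median 1.08), and 3 rose and 2 fell in A2780. The fall of UGT1A6 in A2780 was from 0.0601, 0.0566 and 0.0659 CPM to 0, near the floor of the counts. Only 3 targets reached 5 CPM in both lines, with medians of 0.653 in A2780 and 1.21 in SKOV3. CYP1B1, a monooxygenase of this pathway (chromosome 2, 38066973 to 38109902), measured 75.3, 61.9 and 84.8 CPM with DMSO and 110, 133 and 106 CPM at 20 mg/L in A2780, and 132, 140 and 142 CPM and 298, 372 and 452 CPM in SKOV3. It rose by 0.65 ± 0.15 and 1.44 ± 0.14, the larger rise in SKOV3 (difference 0.78 ± 0.20, edgeR adjusted p = 0.0134). CYP1A1, the best known target, was low, at 0.962, 1.30 and 1.32 CPM with DMSO and 5.4, 7.19 and 5.62 CPM at 20 mg/L in A2780, and 0.283, 0.169 and 0.0486 CPM and 0.809, 1.34 and 2.65 CPM in SKOV3. It rose in both lines, and the interval of the difference, -0.29 to 1.98, was wide.

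Ferroptosis is an iron-dependent death by lipid peroxidation that the series' title names. Of 27 defence genes, 11 rose and 6 fell in A2780 (median log2 0.148), and 9 rose and 3 fell in SKOV3 (median 0.240). Over all genes of at least 5 CPM in both lines, 53.6% were called in A2780 and 9.32% in SKOV3. SLC7A11, the cystine importer (chromosome 4, 138164097 to 138242349), rose from 8.05, 6.97 and 8.30 CPM to 19.9, 17.8 and 19.8 CPM in A2780 and from 103, 92.3 and 98.2 CPM to 163, 148 and 191 CPM in SKOV3. The log2 changes were 1.31 ± 0.10 and 0.78 ± 0.07 (difference -0.53 ± 0.12, edgeR adjusted p = 0.00106), on levels far lower in A2780. GPX4, which reduces lipid peroxides (chromosome 19, 1103926 to 1106791), measured 168, 137 and 151 CPM with DMSO and 134, 142 and 114 CPM at 20 mg/L in A2780, and 279, 287 and 289 CPM and 255, 279 and 264 CPM in SKOV3. Its changes were -0.22 ± 0.07, called, and -0.10 ± 0.07, not called, and the difference of 0.12 had an interval of -0.07 to 0.32. AIFM2, the suppressor FSP1, had 0.32 ± 0.13 and 0.25 ± 0.11, neither called. DHODH, a mitochondrial enzyme of pyrimidine synthesis, fell by 0.61 ± 0.10 in A2780 (0.24 ± 0.11 in SKOV3).

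Of 26 ferroptosis drivers, 9 rose and 5 fell in A2780 and 2 rose and 2 fell in SKOV3. For these drivers and the iron handling genes below, the shares to compare are 53.6% called in A2780 and 9.32% in SKOV3. They hold for all genes of at least 5 CPM in both lines. SAT1, which acetylates polyamines (chromosome X, 23783173 to 23786226), measured 11, 12.7 and 10.7 CPM with DMSO and 30.2, 33.2 and 35.2 CPM at 20 mg/L in A2780. SKOV3 held far more, 692, 720 and 721 CPM with DMSO and 791, 744 and 698 CPM at 20 mg/L, which overlap. It rose by log2 1.51 ± 0.08 in A2780, with 0.07 ± 0.06 in SKOV3 (difference -1.45 ± 0.10, edgeR adjusted p = 4.75e-14). The glutamine importer SLC1A5 fell by 0.30 ± 0.06 in A2780 and rose by 0.66 ± 0.07 in SKOV3, and 23.8% of its exonic bases lie opposite another gene. Of 23 iron handling genes, 10 rose and 5 fell in A2780 and 7 rose in SKOV3. STEAP3, a ferrireductase, fell by 0.80 ± 0.08 in A2780 (0.15 ± 0.08 in SKOV3). TFRC, the transferrin receptor, rose in A2780 (0.29 ± 0.07) with 0.04 ± 0.07 in SKOV3, and its difference of -0.25 ± 0.09 had an adjusted p of 0.0541 that passed in 9 of the alternatives tried.

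Of 22 interferon response genes, 7 rose and 1 fell in A2780 and 1 rose and 2 fell in SKOV3 (median difference log2 -0.403, called for 7 lower in SKOV3 and 1 higher), with the neighbouring genes IFIT2 (log2 -0.74 ± 0.08 and 0.52 ± 0.09) and IFIT3 (1.10 ± 0.16 and 0.13 ± 0.13) on different sides. Nuclear-encoded respiratory chain genes fell in 15 of 28 cases in A2780 and in 1 in SKOV3; NDUFB10, of complex I, had -0.78 ± 0.07 and -0.04 ± 0.07. Of 30 cytosolic ribosomal protein genes, 4 fell in A2780, and 0 were called in SKOV3 by edgeR or DESeq2, with 7 at an unadjusted p under 0.05. RPL8 had -0.28 ± 0.07 and 0.07 ± 0.07. Of the 13 mitochondrially encoded genes, edgeR called 0 in either line or for the difference. In A2780, 1 of them had an unadjusted p under 0.05 and DESeq2 called 1. Of 20 mesenchymal and invasion genes, 4 rose and 5 fell in A2780 and 4 fell in SKOV3. The counts in this paragraph stand beside shares of 33.7% in A2780 and 6.17% in SKOV3 called over all genes tested. Among genes of at least 5 CPM in both lines the shares were 53.6% and 9.32%. TWIST1, a transcription factor of mesenchymal cells, fell by 0.39 ± 0.06 in A2780 (0.00 ± 0.07 in SKOV3), and MMP10, a stromelysin, fell by 1.23 ± 0.14 in SKOV3 (0.16 ± 0.23 in A2780, where all libraries were below 2 CPM). COL3A1, a fibrillar collagen, fell in both lines, with changes of -0.46 ± 0.08 and -0.98 ± 0.10. Of 16 epithelial genes, 1 rose and 3 fell in A2780 and 2 rose and 4 fell in SKOV3. Of 4 genes of the metal response, SLC30A1 rose in A2780. Of 7 immune markers, edgeR and DESeq2 called 0, with 1 in each line at an unadjusted p under 0.05. Of 11 fibroblast and endothelial markers 2 rose and 3 fell in A2780 and 2 fell in SKOV3.

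Among genes of at least 5 CPM in both lines, and without overlap in the line that responded, the A2780-specific genes with the highest rise were DNAJB4, SLFN5, an interferon-inducible gene (log2 1.60 ± 0.09 in A2780, 0.18 ± 0.06 in SKOV3), NXPE3 (1.58 ± 0.12 and 0.12 ± 0.09), KIAA0319 (1.52 ± 0.13 and 0.34 ± 0.11) and ZNF528-AS1 (1.52 ± 0.12 and -0.10 ± 0.07). The lowest were FABP5P7 (-1.63 ± 0.20 and 0.03 ± 0.17), a processed copy whose reads may belong to its parent gene, ANK3, an adaptor of the membrane skeleton (-1.5 ± 0.09 and -0.26 ± 0.11), DIAPH2, a formin (-1.48 ± 0.10 and 0.08 ± 0.09), CAMK1D, a calcium-dependent kinase (-1.47 ± 0.13 and -0.08 ± 0.10), and PARD3B, a cell polarity gene (-1.46 ± 0.09 and 0.08 ± 0.07). Among the SKOV3-specific genes that fell, FILIP1L, a regulator of cell movement (chromosome 3, 99830141 to 100114513), had the largest change. It measured 5.29, 5.15 and 5.27 CPM with DMSO and 6.28, 5.43 and 6.80 CPM at 20 mg/L in A2780, and 26.0, 22.1 and 25.3 CPM and 9.02, 11.2 and 7.69 CPM in SKOV3. The log2 changes were 0.24 ± 0.13 and -1.39 ± 0.11. TRIM6, a ubiquitin ligase (-0.02 ± 0.07 and -0.87 ± 0.08), HMCN1, an extracellular matrix protein (-0.27 ± 0.11 and -0.81 ± 0.12), and SMTN, smoothelin of the contractile skeleton (0.12 ± 0.07 and -0.71 ± 0.08), fell as well. In A2780 HMCN1 was also lower without overlap, with means of 31.5 and 26.2 CPM, short of a call (edgeR adjusted p = 0.073). SLFN5 and KIAA0319 were likewise higher without overlap in SKOV3, short of a call (edgeR adjusted p = 0.0666 and 0.0711).

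Among genes of at least 5 CPM in both lines and without overlap in either, the largest opposite responses, higher in A2780 and lower in SKOV3, were MYH15, a myosin heavy chain (log2 1.28 ± 0.11 and -0.59 ± 0.10), SLC4A8, a bicarbonate transporter (0.50 ± 0.10 and -0.58 ± 0.09), and HIST1H2AC, a histone of a multigene family whose reads may be shared (0.61 ± 0.16 and -0.50 ± 0.15). In the other direction they were SLC7A5, MYC and ARHGAP22, a GTPase-activating protein (-0.83 ± 0.11 and 0.55 ± 0.11). The minimum level leaves out TRIB3, given above, whose smaller change exceeded those of MYC and ARHGAP22, and UGT1A6, near 0 CPM in A2780. At the same minimum level, which leaves out OSGIN1, the widest gaps among shared responses of unequal size were in HMOX1, PANX2, a pannexin (2.17 ± 0.14 and 0.82 ± 0.10), and ABHD4, a lipid hydrolase (1.88 ± 0.11 and 0.65 ± 0.10), on the higher side. On the lower side they were in DDX10, an RNA helicase, MAGI1, a junction scaffold (-1.17 ± 0.07 and -0.29 ± 0.07), and RIMS2, a synaptic scaffold (-1.23 ± 0.10 and -0.39 ± 0.12). DDX10 (chromosome 11, 108665025 to 108940930) fell from 348, 374 and 408 CPM to 146, 130 and 132 CPM in A2780 and from 170, 186 and 181 CPM to 146, 155 and 163 CPM in SKOV3. The groups stood apart in both lines, with changes of -1.47 ± 0.07 and -0.21 ± 0.07.

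Some line differences concern genes that 1 line hardly expressed. Of the genes called in A2780, 572 were under 1 CPM in every SKOV3 library of these groups, and 130 of them reached 5 CPM in A2780. The reverse held for 242 genes called in SKOV3, 167 of which reached 5 CPM. The difference was called for 129 of the 572 and 47 of the 242, and among those of at least 5 CPM for 27 of 130 and 33 of 167. DLG2, a synaptic scaffold, fell from 14, 20 and 17 CPM to 5.53, 4.70 and 4.49 CPM in A2780, and all SKOV3 libraries were below 1 CPM. LINC00377, a non-coding RNA, behaved alike, from 10.2, 15.4 and 13.3 CPM to 3.24, 2.51 and 5.94 CPM, and its called difference was lost without SKOV3 20 mg/L replicate 2 (adjusted p = 0.151). ALDH3A1, an aldehyde dehydrogenase, rose from 67.0, 60.3 and 73.1 CPM to 216, 267 and 246 CPM in SKOV3, with all A2780 libraries below 1 CPM. AKR1C2 rose there from 62.4, 61.4 and 62.2 CPM to 201, 203 and 235 CPM, and the call for its difference was lost without A2780 DMSO replicate 3 (adjusted p = 0.0589). For such genes a response in the other line was not measurable at this depth.

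Of the 5 A2780-specific genes named for the largest falls, ANK3, DIAPH2, CAMK1D and PARD3B span long stretches of the genome and the processed copy FABP5P7 does not. The responses were set out by gene length, in bins chosen after the values were seen. Of 267 genes with at least 5 CPM in both lines and over 300 kb from first to last exon, 208 (77.9%) fell and 7 (2.62%) rose in A2780 (median log2 -0.524). In SKOV3 20 of the same genes (7.49%) fell and 5 rose (median -0.00477). The difference was called higher in SKOV3 for 177 of them (66.3%). In the bins from 10 to 30 kb and from 30 to 100 kb, 23.0% of genes fell in A2780 and 31.2% and 29.8% rose. In SKOV3 the share that fell stayed between 3.98% and 5.04% in the 4 bins up to 300 kb.

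**Figure D4:**
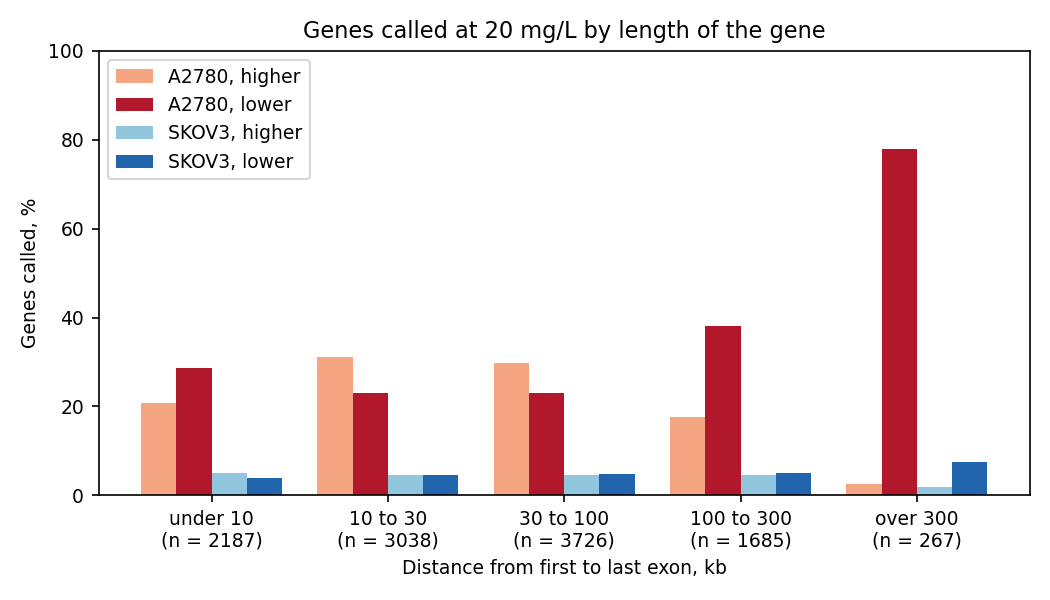
Share of genes called higher and lower at 20 mg/L against DMSO in A2780 and SKOV3, in percent (vertical axis), by the distance from first to last exon in kb (horizontal axis), for genes of at least 5 CPM in both lines; n is the number of genes in a bin. The dark red bar of genes that fell in A2780 reaches 77.9% over 300 kb, where 7.49% fell in SKOV3.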

How the data were processed

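Per the labels' protocols, the mRNA libraries of both lines came from a kit that keeps strand. The authors deposited whole-number read counts per gene, not normalised, per the file headers. The submitters' processing notes name Trimmomatic 0.36 and build GRCh38. Which programs aligned and counted the reads, on which annotation, and whether strand was used, is not stated in the sources used here. Of 56303 rows, 28 identifiers had been turned into dates; these name no gene, took 0.161% to 0.194% of the counts per library and stayed in the totals.

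All 18 libraries were fitted as 6 groups with edgeR 4.0.16 in R 4.3.3: filterByExpr, which left 23742 genes, TMM scaling, robust quasi-likelihood dispersions with 12 residual degrees of freedom, and two-sided F tests with Benjamini-Hochberg adjustment. The 6 libraries at 40 mg/L added to the estimate of the spread only. SEs come from the F statistic and 95% intervals from the t distribution. The script was tested on simulated data. Levels are CPM, and counting error is the only error that depth sets. Alternatives were DESeq2 1.42.0, other filters and scalings, halved counts, fewer libraries, each library left out and a replicate block.

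The 27 gene lists, the classes and the named genes were chosen with earlier results of these data known. Named are a fixed set of genes, per class those with the largest responses among genes of at least 5 CPM in both lines and without overlap, per list up to 4 members with the largest called difference, and a pair per line expressed in that line alone. Further list members were named after their values were seen. Some genes are not reported here.

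Replicate numbers were checked for pairing: deviations of same-numbered DMSO and 20 mg/L libraries correlated at 0.220, 0.251 and 0.198 in SKOV3, over 0.1 in every pair, and at 0.0173, -0.174 and 0.0364 in A2780. Pairs of different numbers ran from -0.229 to 0.0227 in SKOV3 and from -0.282 to 0.253 in A2780. The deviations are taken from means of 3 libraries and so constrain one another. Values of this size do not settle whether the libraries are paired. Overlaps of exons on opposite strands were found with bedtools 2.31.1 from the exon coordinates deposited with the counts. Besides those given in the text, over 10% of the exonic bases lie opposite another gene for NQO1, PLK1, HMGCS1, IDI1, SOD2, NOP16, FKBP4, HSPE1, CYP1B1, STEAP3, UGT1A6 and IL6.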

Additional observations from a re-analysis of the deposited data

Results flagged for a closer look

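The response to 20 mg/L differed between the lines for 5121 genes, by a test of the difference itself, and 86 of the named genes are among them. Each value below is the log2 change in SKOV3 minus that in A2780 at 20 mg/L, and where a second value follows it is the same difference at 40 mg/L. The doses share their DMSO libraries, so the values at 40 mg/L are no independent check. Over all genes tested, the difference at 40 mg/L was called for 7102 (29.9%). The split by sign and call at 40 mg/L is not given here for all 5121 genes. Many of the named genes were picked for large differences, so the counts below describe these genes alone.

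In 52 of the named genes the difference at 40 mg/L had the same sign and was called. SKOV3 had the higher change for SLC7A5 (2.03), MYC (1.85) and TRIB3 (1.95), and for the transporter, amino acid and glucose genes SLC1A5 (0.96), CBS (1.2), STC2 (0.97), HK2 (2.39), SLC2A1 (1.5) and PDK1 (1.35). The same held for the ribosome genes NOLC1 (1.10), MYBBP1A (1.03), NOP16 (0.92), DKC1 (0.91), RPL8 (0.35) and DDX10 (1.26), and for the NRF2 targets TRIM16L (1.38) and AKR1C2 (2.17). MCM6 (0.83), CCNE1 (0.67), RMI2 (0.71), FKBP4 (0.89), SOD2 (0.90), IFIT2 (1.26) and NDUFB10 (0.75) belong here too. A2780 had the higher change for the p53 targets CDKN1A (-1.17), MDM2 (-1.01), TP53INP1 (-1.44) and BTG2 (-1.21), for SLC7A11 (-0.53) and SAT1 (-1.45), and for the lipid genes HMGCS1 (-0.75), IDI1 (-0.94), STARD4 (-0.91) and SCD (-0.74). Also lower in SKOV3 were SLFN5 (-1.42), NXPE3 (-1.45), KIAA0319 (-1.19), ZNF528-AS1 (-1.61), TRIM6 (-0.86), HMCN1 (-0.54), SMTN (-0.83), MYH15 (-1.86), SLC4A8 (-1.08), HIST1H2AC (-1.11), PANX2 (-1.35) and NUSAP1 (-0.99). The last of this kind were AMOTL2 (-1.05), SKIL (-0.94), GABARAPL1 (-1.03), IFIT3 (-0.97), MMP10 (-1.38) and COL3A1 (-0.52).

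In 13 named genes the difference changed sign between the doses and was called at both. The mitotic genes PLK1 (0.74, then -1.0), CCNB1 (0.55, then -1.48) and CENPA (0.60, then -1.46) fell further in A2780 at 20 mg/L and further in SKOV3 at 40 mg/L. TXNRD1 (-0.73, then 0.89), CALR (-0.45, then 0.82) and NEU1 (-1.01, then 0.44) turned the other way. The long genes DIAPH2 (1.56, then -0.47), CAMK1D (1.39, then -0.60), MAGI1 (0.88, then -0.55) and RIMS2 (0.84, then -1.25) turned as the mitotic genes did, as did IER3 (0.56, then -0.82), DUSP6 (1.00, then -0.66) and LIF (0.57, then -0.34).

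In 11 named genes the difference kept its sign at 40 mg/L but was not called there: HMOX1 (-2.78, then -0.27), DNAJB4 (-2.04, then -0.24), FABP5P7 (1.67), E2F2 (0.86), ABHD4 (-1.23), DLG2 (1.82), HSPE1 (0.57), JUN (-1.12), CYP1B1 (0.78), DHODH (0.85) and STEAP3 (0.94). In 10 it had the other sign and was not called at 40 mg/L: GCLM (-1.09, then 0.21), OSGIN1 (-2.77, then 0.16), ANK3 (1.24), PARD3B (1.54), FILIP1L (-1.63, then 0.28), ARHGAP22 (1.38), LINC00377 (1.70), ALDH3A1 (2.19), DNAJC3 (-0.58) and TWIST1 (0.39).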

How the results depend on the processing

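The count of genes with a line difference, 5121, ran from 4485 to 5449 over all alternatives, and no gene called in both the reported fit and an alternative changed the sign of its difference. Leaving out 1 library gave 4485 to 4901 (2271 to 2568 higher, 2186 to 2445 lower). The SKOV3 count of 1466 moved to 2217 (1085 lower) with each line fitted alone and from 920 to 1654 with 1 library left out (479 to 877 higher, 429 to 777 lower). The lowest counts came without SKOV3 DMSO replicate 2 or 3 or 20 mg/L replicate 3. Classes with 1 library left out held 188 to 327 SKOV3-specific, 271 to 447 shared alike, 92 to 158 shared unequal and 119 to 214 opposite genes; opposite genes were also fewer without SKOV3 20 mg/L replicate 1 (131). With 1 library left out the difference took both signs for AIFM2 (-0.18 to 0.072), EGR1 (-0.21 to 0.44), HMMR (-0.0035 to 0.13) and HMMR-AS1 (-0.045 to 0.19), none of which was called. HMCN1 lost its call without A2780 DMSO replicate 1 (adjusted p = 0.0551) or SKOV3 20 mg/L replicate 3 (0.0527), and LINC00377 also with the 12 libraries alone (0.0711) or halved counts (0.0642). A block for the replicate number gave 5024 genes with a line difference (5070 with the block in SKOV3 alone, an alternative chosen after seeing the data), and moved none of the counts above by over 1.5 times. With 3 libraries a group, line, medium and unlabelled batches cannot be told apart, and depth limits genes near 1 CPM.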

Other observations

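At 40 mg/L, against the same DMSO libraries, the lines differed for 7102 genes (29.9%), 3386 with the higher change in SKOV3 (14.3%) and 3716 with the lower (15.7%). Mitotic genes had the lower change in SKOV3 for 28 of 30 (median difference log2 -1.11), where at 20 mg/L 11 were higher and 3 lower (median 0.167). Endoplasmic reticulum chaperones had the higher change in SKOV3 for 16 of 20 (median 0.552), where at 20 mg/L 6 were lower (median -0.166). Interferon response genes were lower in SKOV3 for 13 of 22 (median -1.07), where at 20 mg/L 7 were lower (median -0.403). The median difference at 20 and then 40 mg/L was 0.580 and 0.680 for ribosome biogenesis genes, -0.422 and -0.495 for p53 targets and -0.479 and -0.824 for cholesterol synthesis genes. The difference between the doses was not tested.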
